A study of Homo sapiens with 6 samples.

Results

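Chromosome 19 is the human chromosome with the most C2H2 zinc-finger genes, and the report describes its open chromatin in K562 cells, an established human myeloid leukaemia line. All intervals on chromosome 19 in 6 ATAC-seq peak lists were taken, and each was assigned by its midpoint to 1 of 5 zinc-finger windows or to the remaining sequence, called the rest. On the hg19 build the windows ran from 19.8 to 24.5 Mb, 36.5 to 38.6 Mb, 44.3 to 45.0 Mb, 52.0 to 54.2 Mb and 56.5 to 59.1 Mb. Of 48967 intervals summed over the 6 lists, 2311 lay on chromosome 19, with 274 in the windows and 2037 in the rest. After merging overlapping intervals, 860 of 17466 regions lay on chromosome 19, with 116 in the windows and 744 in the rest. The chromosome was chosen from its share of each list, which had been seen to differ between libraries, so those shares are given as description only. They were 2.25% in vector with DMSO, 2.89% in vector with camptothecin, 4.51% and 6.01% in the wild-type SLFN11 line, and 5.56% and 5.67% in the E669Q line. The windows are fixed positions, but they were chosen with earlier results of these data known.

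ATAC-seq marks open DNA by letting a transposase insert adapters into it. Per the labels, the 6 groups were K562 cells with a vector control, K562 overexpressing wild-type SLFN11 and K562 overexpressing SLFN11 E669Q, each with DMSO or with 1000 nM camptothecin (CPT) for 4 h. SLFN11 binds stressed replication forks, E669Q alters its ATPase domain, and CPT traps topoisomerase I on DNA so that replication forks stall. The labels name neither the promoter of the transgenes nor the number of clones behind each line, and marker genes of K562 were not checked because no gene annotation of the build was used. Each group was 1 library, so no difference has a replicate check, no test between groups was made, and every 95% interval below covers counting error only and treats intervals as independent.

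Most genes of the clusters encode KRAB zinc-finger proteins, which bind DNA through tandem fingers and recruit the corepressor TRIM28, often to silence transposable elements. The clusters arose by repeated gene duplication, and in many cells their gene bodies carry the heterochromatin mark H3K9me3 while their promoters are open. The RefSeq gene table lists 1451 protein-coding genes on chromosome 19, of which 264 (18.2%) have a symbol starting with ZNF, ZFP, ZIM or ZSCAN. These are 46.7% of all such genes in the table. The rest of the chromosome holds many housekeeping and signalling genes, and also further zinc-finger genes on the short arm that fall outside the windows.

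Libraries differed in depth, which moved with the number of intervals. With vector DMSO set to 1, the depth recovered from the files was 1.09 for vector with CPT, 1.72 and 1.09 in the wild-type SLFN11 line with DMSO and CPT, and 1.33 and 2.23 in the E669Q line. The lists held 5246, 5806, 11651, 5562, 8365 and 12337 intervals in that order. Counts are therefore also given as shares of the list, and as a ratio of ratios between the classes, in which list length cancels.

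The zinc-finger windows held fewer intervals per Mb than the rest in each of the 6 libraries. The windows spanned 12.3 Mb and the rest 43.7 Mb, after leaving out the longest stretch without an interval in any list (24614492 to 27731852, 3.12 Mb). In vector with DMSO the windows held 23 intervals (1.87 per Mb, 1.19 to 2.81) and the rest 95 (2.17 per Mb, 1.76 to 2.66). In vector with CPT these were 23 (1.87 per Mb) and 145 (3.32 per Mb). The vector libraries thus held equal numbers of intervals in the windows at both treatments. In the wild-type SLFN11 line the windows held 78 intervals with DMSO (6.34 per Mb) and 40 with CPT (3.25 per Mb), and the rest 448 (10.3 per Mb) and 294 (6.73 per Mb). In the E669Q line the windows held 33 (2.68 per Mb) and 77 (6.26 per Mb), and the rest 432 (9.89 per Mb) and 623 (14.3 per Mb). Over whole lists the density was 1.7 to 3.99 intervals per Mb. It was counted over 3093.5 Mb up to the last interval end of each main chromosome, with stretches without intervals kept.

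**Figure D1:**
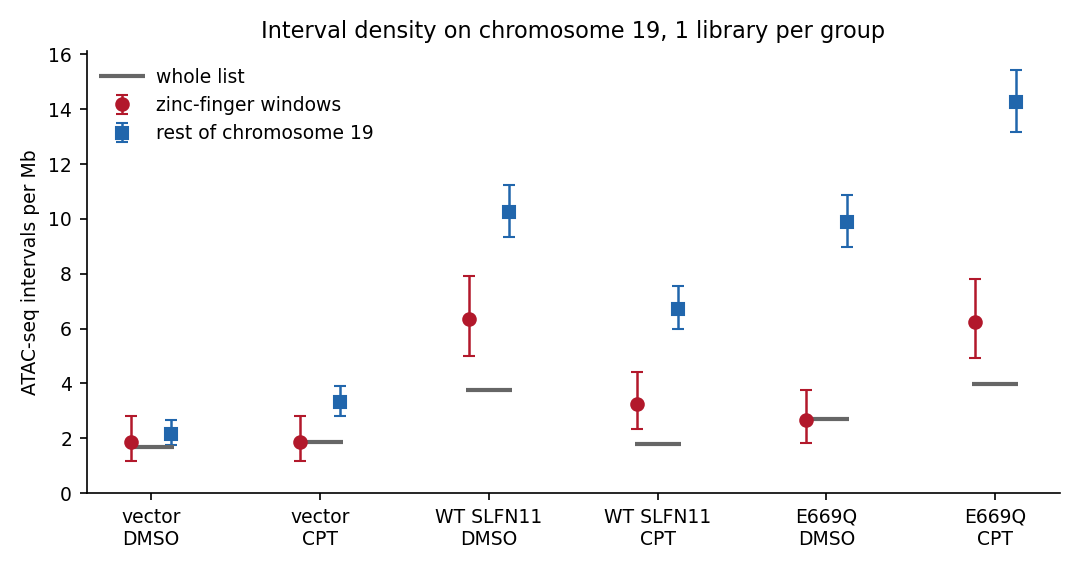
Intervals per Mb (vertical axis) in the zinc-finger windows (circles) and the rest of chromosome 19 (squares) in each of the 6 libraries, with exact Poisson 95% intervals and the density of the whole list as a dash. The windows lie between 1.87 and 6.34 per Mb and below the rest in each library, with overlapping intervals in both vector libraries.

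The density of the windows relative to the rest had a median of 0.523 over the 6 libraries. It was 0.860 (0.520 to 1.37) in vector with DMSO, the only library whose interval included 1, and 0.563 (0.346 to 0.879) in vector with CPT. Wild-type SLFN11 gave 0.619 (0.480 to 0.788) with DMSO and 0.483 (0.338 to 0.674) with CPT. In the E669Q line it was 0.271 (0.184 to 0.387) with DMSO and 0.439 (0.342 to 0.557) with CPT. The lowest and the highest ratio thus both came from DMSO libraries. The density of the rest follows its share of the list, nearly that from which the chromosome was chosen. The order of these ratios between libraries is therefore description only. Relative to the density of its own list, the rest ranged from 1.28 in vector with DMSO to 3.74 in wild-type SLFN11 with CPT. The windows stayed nearer to the list, from 0.992 in E669Q with DMSO to 1.81 in wild-type SLFN11 with CPT. The length behind the list density keeps stretches without intervals, while that of the rest leaves out the longest. The levels of these ratios are therefore not at like lengths.

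Widths and folds differed little between the classes. The fold is the authors' enrichment of the summit over its local background, and a ranking within a list. Median widths in the windows were 186, 205, 254, 231, 239 and 249 bp in vector, wild-type SLFN11 and E669Q, DMSO before CPT. In the rest they were 228, 203, 252, 245, 266 and 279 bp. The difference of medians, windows minus rest, ranged from −42 to 2.5 bp, and was below 0 in 4 of 6 libraries. Median folds were 5.29 to 6.21 in the windows and 5.29 to 6.01 in the rest, and the difference ranged from −0.28 to 0.27, below 0 in 2 of 6 libraries. Intervals with a fold of at least 10 numbered 0 to 2 per library in the windows and 3 to 11 in the rest. As shares these were 0% to 2.60% of the windows' intervals and 0.926% to 3.16% of those in the rest, against 2.45% to 4.56% of whole lists. In E669Q with CPT the share was 2.60% in the windows and 1.77% in the rest. Intervals of at most 150 bp made up 12.1% to 24.4% of the windows' intervals and 8.84% to 22.8% of those in the rest. Intervals with several summits made up 0% to 10.3% of the windows' intervals and 2.11% to 21.8% of those in the rest. They were 4 of 77 and 136 of 623 in E669Q with CPT, the deepest library, but 8 of 78 and 52 of 448 in wild-type SLFN11 with DMSO, 10.3% against 11.6%. In wild-type SLFN11 with CPT the share of narrow intervals was 20.0% against 8.84%, a difference of 11.2 percentage points (0.925 to 26.2), and in the other 5 libraries the interval of the difference included 0.

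The local background was lower at intervals of the windows in each library. It is the expected number of fragments at a summit from the 10 kb around it, recovered from the deposited fold and p-value, and here divided by the lowest background of the library. It includes the fragments of the interval itself and of its neighbours. In the windows the median was 1.32 in vector with DMSO, 1.50 in vector with CPT, 1.49 and 1.85 in the wild-type SLFN11 line, and 1.69 and 1.57 in the E669Q line. In the rest it was 1.86, 2.14, 2.26, 3.03, 2.71 and 2.77 in that order. The 95% intervals of the 2 classes touched at 1.71 in vector with DMSO and at 2.07 in vector with CPT, and were apart in the other 4 libraries. The median over the whole list was 2.06 to 2.56. The rest was thus below the whole list in both vector libraries and above it in the other 4 (in wild-type SLFN11 with DMSO by 2.26 against 2.21), while the windows were below it throughout. The order of the rest between libraries is not separate from the shares from which the chromosome was chosen, and is description only.

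At intervals shared by a vector list and a list of an SLFN11 line with the same treatment, the background in the rest was higher in the SLFN11 line. The chromosome was chosen from shares that were higher in these lines, and the background includes the fragments of neighbouring intervals. The values of the rest are therefore not separate from that choice. Their intervals do not allow for it, so they are description only. The median log2 ratio in the rest was 0.48 (0.37 to 0.56, 81 intervals) for wild-type SLFN11 over vector with DMSO and 0.64 (0.56 to 0.75, 108 intervals) with CPT. For E669Q over vector it was 0.79 (0.73 to 0.89, 75 intervals) and 0.75 (0.69 to 0.81, 142 intervals). Over all shared intervals of the genome the medians were 0.21, 0.12, 0.08 and 0.13. In the windows the medians were 0.30 (17 intervals), 0.87 (12), 0.29 (7) and 0.26 (17). The windows' intervals were wide, and for wild-type SLFN11 with CPT (0.15 to 1.05) theirs held the value of the rest. For E669Q with DMSO it ran from −0.71 to 0.65, and with CPT from 0.06 to 0.72, below the interval of the rest with DMSO and overlapping it with CPT.

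The share of the list that the rest took is nearly the chromosome's own share, from which the chromosome was chosen, since the windows held 7.10% to 19.5% of its intervals. It is therefore given as a description without intervals. With CPT it went from 1.81% to 2.50% in the vector line, 1.38 times, and from 3.85% to 5.29% in the wild-type SLFN11 line, 1.37 times. In the E669Q line it was 5.16% and 5.05%, 0.978 times. The share of the windows was 0.438% and 0.396% in the vector line (0.904 times, 0.508 to 1.61) and 0.669% and 0.719% in the wild-type SLFN11 line (1.07 times, 0.735 to 1.57). These values turned with −log10 q of at least 5, where the windows were at 1.93 times in vector (0.595 to 6.26), beside 1.88 in its rest, and at 0.698 times in wild-type SLFN11 (0.362 to 1.35). In the E669Q line the share of the windows went from 0.394% to 0.624% (1.58 times, 1.05 to 2.38), but in lists of matched length, each cut to its 5246 strongest intervals, the ratio was 1.26 (0.730 to 2.18). The interval included 1 under 4 of 9 alternative settings.

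The ratio of ratios put these classes side by side within a line. The share of the rest, nearly that from which the chromosome was chosen, enters each such ratio, and the intervals do not allow for that choice. The CPT over DMSO ratio of the windows divided by that of the rest was 0.655 (0.348 to 1.23) in the vector line, 0.781 (0.519 to 1.18) in the wild-type SLFN11 line and 1.62 (1.06 to 2.48) in the E669Q line. With −log10 q of at least 5 the vector value was 1.03 (0.289 to 3.64) and the wild-type SLFN11 value 0.517 (0.258 to 1.04), so that no direction held in the vector line. The interval excluded 1 in the E669Q line alone. There it included 1 under 5 of 9 alternative settings, and in lists of matched length the ratio was 1.15 (0.647 to 2.03). Depth with CPT was 1.09 times that with DMSO in the vector line and went from 1.33 to 2.23 in the E669Q line. Its part in these ratios was not tested.

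**Figure D2:**
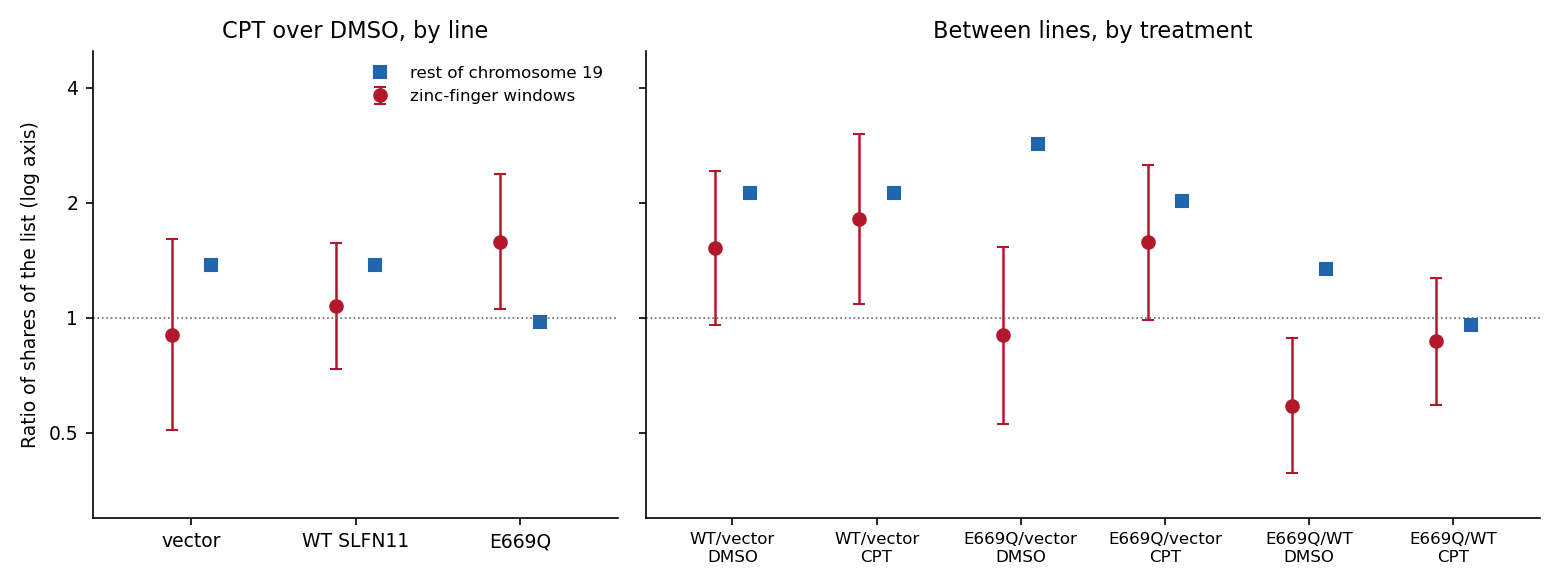
Ratio of the share of the list (vertical log axis) for the windows (circles) and the rest (squares), with log-normal 95% intervals for the windows and none for the rest. The left panel sets CPT over DMSO in each line and the right panel sets lines against each other. With DMSO, the rest is at 2.85 for E669Q over vector while the windows are at 0.90.

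Intervals found with 1 treatment alone were counted next. A DMSO interval with no overlap in the CPT list of its line is called lost, and a CPT interval with no overlap in the DMSO list gained. What the rest loses and gains is not separate from its share of the list, nearly that from which the chromosome was chosen. The intervals of the rest and of the class differences do not allow for that choice, in any line. Both are description only. In the vector line 20 of 23 intervals in the windows (87.0%, 66.4 to 97.2) and 52 of 95 in the rest (54.7%, 44.2 to 65.0) were lost, against 39.5% of the whole list. The difference between the classes was 32.2 percentage points (10.8 to 45.3). With −log10 q of at least 5 it was 17.3 points, with an interval that includes 0 (−30.7 to 45.0). Of the vector CPT intervals 20 of 23 in the windows and 102 of 145 in the rest (70.3%) were gained, against 45.1% of the whole list, a difference of 16.6 points (−3.66 to 28.2). Thus 3 intervals in the windows were in both vector lists. The median pileup with DMSO was 5.5 fragments for lost and 8 for retained intervals of the windows, and 6 and 7 in the rest. With CPT it was 7 for gained and 6 for retained intervals of the windows, and 8 and 9 in the rest. Of the 23 DMSO intervals of the windows, 17 were also listed for wild-type SLFN11 with DMSO and 17 for E669Q with CPT, the 2 deepest libraries. That is 73.9% in both, against 84.6% and 82.6% of the whole vector DMSO list. Of the 23 CPT intervals these lists held 21 (91.3%) and 17 (73.9%), against 84.0% and 84.3% of the whole vector CPT list.

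In the wild-type SLFN11 line 46 of 78 intervals in the windows (59.0%, 47.3 to 70.0) and 215 of 448 in the rest (48.0%, 43.3 to 52.7) were lost, against 59.5% of the whole list. The windows were thus at the share of the whole list. The rest was below it, which is not separate from the choice of the chromosome and is description only. The difference between the classes was 11 points (−1.03 to 22.2), and 23.8 points (4.49 to 41.9) in lists of matched length. Its interval excluded 0 under 5 of 10 alternative settings. Gained were 8 of 40 intervals in the windows (20.0%, 9.05 to 35.6) and 63 of 294 in the rest (21.4%, 16.9 to 26.6), against 15.1% of the whole list. The median pileup with DMSO, in fragments, was 8 for lost and 10 for retained intervals of the windows, and 9 and 12 in the rest.

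In the E669Q line few intervals of either class were lost, 5 of 33 in the windows (15.2%, 5.11 to 31.9) and 61 of 432 in the rest (14.1%, 11 to 17.8), against 19% of the whole list. Gained were 47 of 77 in the windows (61.0%, 49.2 to 72.0) and 253 of 623 in the rest (40.6%, 36.7 to 44.6), against 45.2% of the whole list. The difference was 20.4 points (8.60 to 31.2). In lists of matched length it was 12.8 points (−5.39 to 30.6), and with −log10 q of at least 5 it was 12.7 points (−2.70 to 25.6), both with intervals that include 0. Gained intervals in the windows had a median pileup of 9 fragments against 11.5 for those also found with DMSO.

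**Figure D3:**
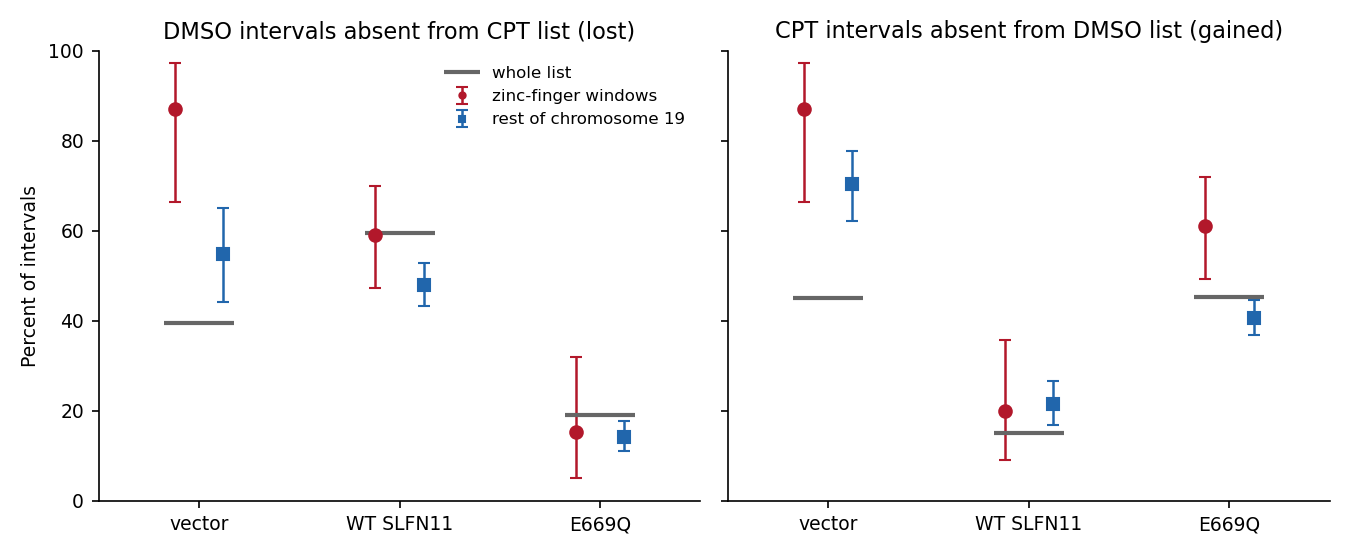
Percent of intervals lost (left) and gained (right) with CPT in each line (horizontal axis), for the windows (circles) and the rest (squares) with exact Clopper-Pearson 95% intervals, and for the whole list (dash). In the vector line the windows are at 87.0% in both panels, and in the E669Q line at 15.2% lost and 61.0% gained.

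Between lines, the larger chromosome 19 share of the E669Q library with DMSO lay in the rest and not in the windows. Relative to vector with DMSO, the share of the rest was 2.85 times as large in E669Q and that of the windows 0.90 times (0.529 to 1.53). The ratio of ratios was 0.316 (0.177 to 0.562). In lists of matched length it was 0.363 (0.194 to 0.677), and with −log10 q of at least 5 it was 0.546, with an interval that includes 1 (0.173 to 1.73). For wild-type SLFN11 with DMSO the rest was at 2.12 times the vector share and the windows at 1.53 times (0.960 to 2.43), a ratio of ratios of 0.719 (0.430 to 1.2). With −log10 q of at least 5 that ratio of ratios was 1.15 (0.384 to 3.46). The windows of E669Q with DMSO were at 0.589 times the wild-type share (0.393 to 0.884) and the rest at 1.34 times, a ratio of ratios of 0.439 (0.286 to 0.673). In lists of matched length the windows held 23 and 28 intervals, 0.821 times, with an interval that includes 1 (0.474 to 1.42), and the rest was at 1.63 times. The ratio of ratios was 0.302 to 0.519 under its 9 alternatives. The share of the rest, nearly that from which the chromosome was chosen, enters every ratio of ratios between lines. Their intervals do not allow for that choice, so these ratios are description only.

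With CPT the ratios of ratios between lines all had intervals that included 1. Relative to vector with CPT, wild-type SLFN11 was at 1.82 times in the windows (1.09 to 3.03) and 2.12 times in the rest. E669Q was at 1.58 times in the windows (0.990 to 2.51) and 2.02 times in the rest. The ratios of ratios were 0.858 (0.495 to 1.49) and 0.779 (0.473 to 1.28). E669Q over wild-type SLFN11 gave 0.908 (0.605 to 1.36). With CPT, wild-type SLFN11 and vector had nearly equal depth (1.09 in both), while E669Q had 2.23. Comparisons that share a vector library are not independent of each other.

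The 5 windows did not share 1 pattern. The first, beside the centromere, held 6 and 5 intervals in the vector libraries, 23 and 9 in the wild-type SLFN11 line and 17 and 33 in the E669Q line, DMSO before CPT. The second held 5, 4, 9, 5, 5 and 13, and the third 1, 0, 4, 2, 1 and 6 in the same order. The fourth held 4 and 4 in the vector libraries, 13 and 5 in the wild-type SLFN11 line, and 1 and 5 in the E669Q line. The fifth, at the end of the long arm, held 7 and 10, then 29 and 19, then 9 and 20. It was the densest window in both vector and both wild-type SLFN11 libraries, with 11.2 intervals per Mb in wild-type SLFN11 with DMSO. In E669Q the first window was denser with DMSO (3.62 against 3.46 per Mb) and the third with CPT (8.57 against 7.69 per Mb). Near its outer edge the fifth window was crowded: 14 of its 38 merged regions lay within 250 kb of its end. Within 250 kb of all 10 edges, 35 regions lay inside and 25 outside. Beyond the end of the fifth window the last interval ended at 59.113 Mb, which leaves little sequence there, and without that edge 21 lay inside and 24 outside.

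**Figure D4:**
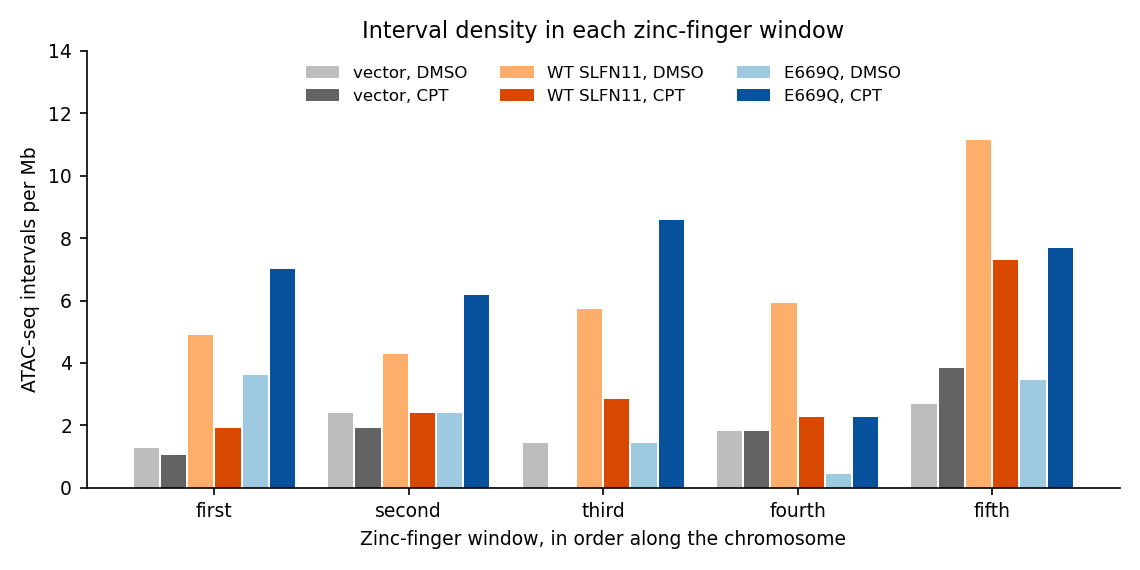
Intervals per Mb (vertical axis) in each of the 5 zinc-finger windows in order along the chromosome, 1 bar per library. In the fourth and the fifth window the E669Q DMSO bars (0.455 and 3.46) lie below the wild-type SLFN11 DMSO bars (5.91 and 11.2).

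Window by window, the share of E669Q with DMSO relative to wild-type SLFN11 was 1.03 in the first, 0.774 in the second, 0.348 in the third, 0.107 in the fourth and 0.432 in the fifth. The third rests on 1 against 4 intervals. With CPT the ratios were 1.65, 1.17, 1.35, 0.451 and 0.475 in the same order, so that the fourth and the fifth window were below 1 with both treatments. These 2 were set apart after the values were seen, and their pooled ratios are given without intervals. With DMSO they held 10 intervals in E669Q and 42 in wild-type SLFN11, a share ratio of 0.332, and with CPT 25 and 24, a ratio of 0.470. In lists of matched length they held 5 against 13 with DMSO (0.385) and 4 against 21 with CPT (0.190). In the rest between 50 and 60 Mb, which surrounds these windows, the ratios were 0.938 and 0.861, and between 0 and 20 Mb they were 1.51 and 1.01.

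Taken over all 6 libraries, merged regions of the windows recurred in fewer libraries than those of the rest. In the windows 51 of 116 regions (44%, 34.8 to 53.5) were in 1 library alone, and in the rest 245 of 744 (32.9%, 29.6 to 36.4), against 38.1% of all regions. The difference between the classes was 11 percentage points (1.68 to 20.7). Its interval does not allow for the choice of the chromosome, and that of the windows held the 38.1% of all regions. Of the 51 regions, 21 were in wild-type SLFN11 with DMSO and 21 in E669Q with CPT, the 2 deepest libraries. The part of depth was not tested. In E669Q with DMSO, 32 of 33 intervals of the windows and 390 of 432 of the rest were found in another library. There the windows recurred more (6.69 points, −5.84 to 10.7), and in each other library less. In all 6 libraries were 1 region of the windows (0.862%, 0.0218 to 4.71) and 39 of the rest (5.24%, 3.75 to 7.10), against 12.3% of all regions. Both classes were thus below the genome in this. Present in both wild-type SLFN11 and both E669Q lists but in no vector list were 3 regions of the windows (2.59%, 0.537 to 7.37) and 80 of the rest (10.8%), against 3.09% of all regions. The windows were thus at the share of the genome. In both E669Q libraries and no other were 2 regions of the windows (1.72%) and 61 of the rest (8.20%), against 3.26% of all regions. The chromosome was chosen from shares that were higher in the SLFN11 lines, and the rest holds most of its intervals. The values of the rest in these 2 sets are therefore description only, without intervals. In both wild-type SLFN11 libraries and no other were 5 regions of each class, 4.31% of the windows (1.41 to 9.77) and 0.672% of the rest (0.219 to 1.56), against 0.819% of all regions, a difference of 3.64 points (1.03 to 9.04).

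**Figure D5:**
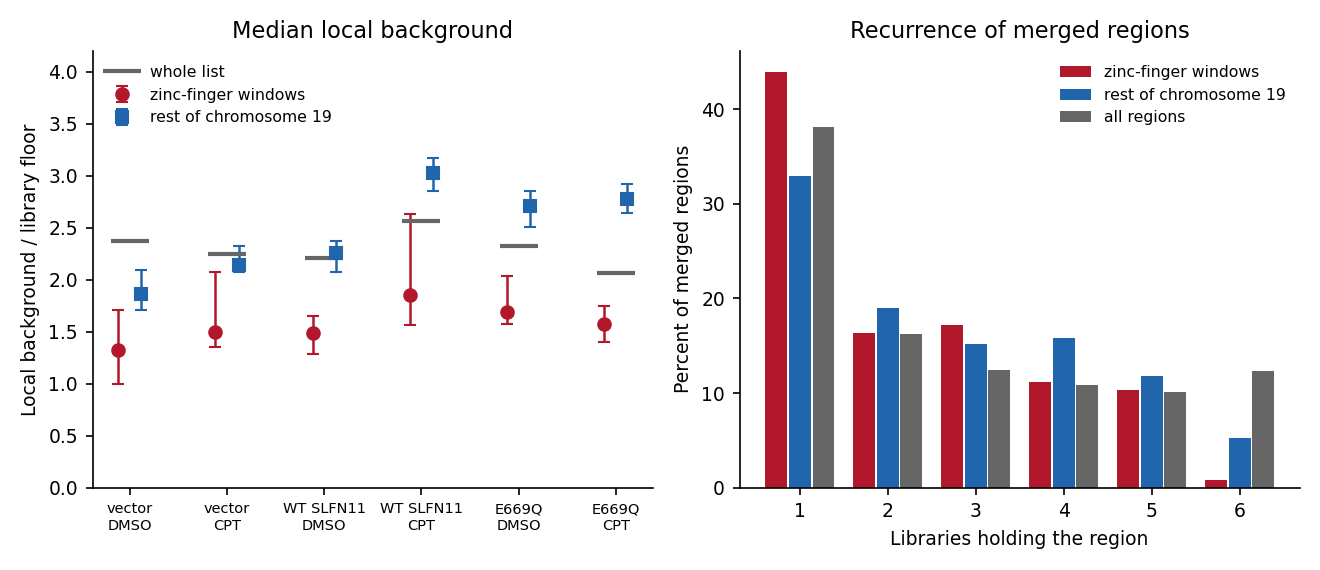
Left, the median local background of intervals divided by the lowest background of the library, with order-statistic 95% intervals, in the windows (circles), the rest (squares) and the whole list (dash) for each library. Right, the percent of merged regions found in 1 to 6 libraries. The windows lie at 1.32 to 1.85 on the left, below the rest in each library, and 44% of their regions are in 1 library on the right.

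A region found in the most libraries was taken from each window, and of tied regions the one whose lowest fold was highest. In the first window 4 regions were in 5 libraries, and the one taken lay from 19887044 to 19887555 on chromosome 19, absent from vector with DMSO, with a fold of 9.54 in vector with CPT, 7.74 and 6.08 in the wild-type SLFN11 line and 7.34 and 8.47 in the E669Q line. The second window held the region found in all 6 libraries, from 36605874 to 36606589, with folds of 4.37 and 5.75 in vector, 6.69 and 4.50 in wild-type SLFN11, and 8.38 and 7.66 in E669Q. The third window's was 44617352 to 44617739, in 4 libraries, with folds of 4.35 to 7.47. In the fourth window the region from 52692892 to 52693588 was in 5 libraries, highest in wild-type SLFN11 with DMSO (9.75) and lowest in vector with CPT (4.50). In the fifth 5 regions were in 5 libraries, and the one taken, from 58873866 to 58874330, had folds of 6.47, 6.77, 8.97, 7.59 and 5.58 and was absent from E669Q with DMSO.

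The 3 regions of the rest taken by the same rule had higher folds than those taken from the windows. An interval of the windows with folds of 22.9 and 24.8 was in 2 libraries only, and is described further below. The region from 36066504 to 36066750 had folds of 19.8 and 20.7 in vector, 29.2 and 25.0 in wild-type SLFN11, and 27.1 and 31.3 in E669Q, so that both vector values were below the other 4. Its pileups were 46 and 53, 142 and 74, and 134 and 198 fragments in the same order. Folds rank within a list, and the part of depth in this order was not tested. The other 2 by the same rule lay from 27731853 to 27732802 (fold 24.2 to 26.7) and from 27738365 to 27738936 (11.1 to 13.6), directly beside the longest stretch without an interval. Their folds moved little between libraries. Pileups at 27738365 were 142 to 416 fragments, against medians of 7 to 13 in the rest, and those at 27731853 could not be solved. Whether these 3 regions mark open chromatin was not tested. These 3 were the only ones of the 39 rest regions in all 6 libraries with a mean fold of at least 10, and the median of the mean folds was 6.77.

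The 3 regions of the windows present in every wild-type SLFN11 and E669Q list but no vector list lay from 21324699 to 21325025, 21203278 to 21203836 and 58694263 to 58694708. The first had folds of 4.24 and 4.68 in wild-type SLFN11 and 7.52 and 7.78 in E669Q, and was thus higher in both E669Q libraries. The second had folds of 4.99 to 6.01, and the one on the long arm 4.86 to 6.11. The 5 such regions of the rest with the highest mean fold reached 6.08 to 9.63. They lay from 10491173 to 10491714, 40476656 to 40477149, 13905820 to 13906260, 41869776 to 41870216 and 2096320 to 2096951. In 4 of these 5 the highest fold was that of E669Q with DMSO, and in the region at 41869776 it was that of wild-type SLFN11 with DMSO (8.75).

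The 2 intervals wider than 150 bp with the highest fold were taken among the lost and among the gained of each line and class, 24 in all. Of these, 19 lay in a merged region found in another line, and presence below is that of the merged region. In the wild-type SLFN11 line the lost intervals with the highest fold in the windows lay from 24097482 to 24097736 (fold 8.78) and 21688335 to 21688679 (8.58), and both were in both E669Q libraries. In the rest they lay from 893028 to 893551 (9.89) and 344575 to 344901 (9.66), and both were in E669Q with DMSO. The latter place was also lost in the E669Q line, where it had a fold of 8.30. Gained in wild-type SLFN11 were 44915248 to 44915686 (6.49) and 56879524 to 56879815 (6.40) in the windows, and 47551930 to 47552140 (8.75) and 12983860 to 12984287 (7.38) in the rest. Those at 56879524 and 12983860 were in no other library.

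In the E669Q line the gained intervals of the windows with the highest fold lay from 21579760 to 21580183 (9.01) and 38085444 to 38085736 (7.94). The first was also in vector with DMSO and both wild-type SLFN11 libraries, and the second in no other library. Those of the rest lay from 16683196 to 16683455 (9.56) and 30097076 to 30097267 (9.40). Its lost intervals of the windows lay from 57946527 to 57946935 (6.70) and 21105940 to 21106134 (5.81). The other lost interval of the rest named for this line lay from 28284543 to 28284901 (6.87). Gained in vector, the strongest intervals of the windows were 23433140 to 23433328 (9.65) and 19887268 to 19887507 (9.54), each also in the other 4 lists with SLFN11. Those of the rest were 41304918 to 41305119 (8.65) and 47551760 to 47552194 (8.47). The lost ones were 44617352 to 44617505 (7.47) and 21579844 to 21580153 (6.57) in the windows, and 33667841 to 33668244 (7.13) and 39881811 to 39881991 (7.06) in the rest. Each of these 4 also appeared in 3 or 4 lists from cells with SLFN11.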

How the data were processed

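The 6 narrowPeak lists are 1 per library. MACS2 2.1.2, Picard 2.9.2, SAMtools 1.8, Trimmomatic 0.39, Bowtie2 2.2.6 and the build hg19 appear in the submitters' processing notes without role or setting; transposase shift, duplicate handling and read depth are not given in the sources used here. Each deposited entry has the authors' fold enrichment (a ratio over local background), the −log10 of its p-value and of its q-value, and a score, which is the deposited −log10 q times 10 without decimals. Distinct intervals were counted, with the highest fold of their summits, and shared means an overlap of at least 1 bp. Coordinates are 1-based.

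Pileups and backgrounds were solved from fold (pseudocount 1) and p-value to a tolerance of 0.001 in −log10 p for 98.3% to 99.8% of chromosome 19 entries. Depth is the lowest background divided by its step, 1 fragment per 10 kb. Densities carry exact Poisson, shares Clopper-Pearson, differences of shares Newcombe, and ratios log-normal 95% intervals; density ratios use the Clopper-Pearson split. Lists of matched length hold the 5246 strongest intervals by −log10 p. Scripts were tested on simulated data. The members, windows and lists were chosen with earlier results of these data known. Named regions are, per window, the one in the most libraries (3 in the rest; ties by the highest lowest fold), then the 2 strongest lost and gained by fold wider than 150 bp per line and class, up to 5 by mean fold present in each SLFN11-expressing library but no vector library, and up to 3 by fold of at most 150 bp. Alternatives changed the thresholds, list length, width, counting unit, overlap and windows. RefSeq symbols came from a GRCh38.p14 table without coordinates; hg19 sequence and genes were not used here. Computation used scipy 1.17.1, pandas 2.3.3 and numpy 2.4.6 in Python 3.11.15, and figures matplotlib 3.10.9.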

Additional observations from a re-analysis of the deposited data

Results flagged for a closer look

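The number of intervals with CPT over that with DMSO went opposite ways in the SLFN11 lines in both classes. For wild-type SLFN11 it was 0.513 in the windows and 0.656 in the rest, and for E669Q 2.33 and 1.44. Depth also went opposite ways, from 1.72 to 1.09 for wild-type SLFN11 and from 1.33 to 2.23 for E669Q, and its part was not tested. The ratio of ratios, windows over rest, was 0.655 for vector and 0.781 for wild-type SLFN11, but 1.62 for E669Q. These differences between lines were not tested, since each group is 1 library.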

How the results depend on the processing

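Over 223 values from alternative settings, 217 stayed within the 95% interval of the value reported, 6 moved beyond it, and 0 changed direction where that interval excluded no difference. With −log10 q of at least 5, wild-type SLFN11 had a CPT over DMSO ratio of ratios of 0.517. There the CPT share ratios were 1.93 (windows) and 1.88 (rest) for vector and 0.698 (windows) for wild-type SLFN11. At matched length the lost-share difference of wild-type SLFN11 was 23.8 points, and the CPT share ratio of its rest 1.76. The cause was not tested. The density ratio of the windows over the rest, as the median of 6 libraries, was 0.468 to 0.656 over its 10 alternatives, and 0.496 with short-arm zinc-finger clusters added. Leaving out the first window gave the highest value. The alternatives for comparisons between lines, for CPT share ratios and for single windows were chosen after seeing the data. No paired analysis was possible because each group is 1 library and the labels give no replicate numbers. Median pileups of 6 to 13 fragments limit which intervals were called, and the shallow vector lists hold 23 intervals each in the windows.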

Other observations

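The 5 regions of the windows found in both wild-type SLFN11 libraries and no other all lay in the fourth and the fifth window, and were looked at after their values were seen. They ran from 52599009 to 52599221 (fold 6.65 with DMSO and 4.24 with CPT), 56652241 to 56652549 (6.27 and 4.84), 58144468 to 58144720 (5.00 and 4.87), 58816602 to 58816827 (5.26 and 5.86) and 58838255 to 58838644 (5.78 and 6.08).

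The highest fold in the windows was that of an interval of at most 150 bp. It ran from 24184079 to 24184189, with a fold of 24.8 in E669Q with CPT and 22.9 in wild-type SLFN11 with DMSO, the 2 deepest libraries, and was in no other. The next narrow one lay from 21950331 to 21950464, with 9.52 in wild-type SLFN11 with DMSO, 5.60 in E669Q with DMSO and 4.95 with CPT. In the rest the highest narrow folds were 8.85 (19249278 to 19249411, E669Q with CPT alone), 8.84 (1542698 to 1542818, E669Q with DMSO, also listed with CPT at 5.09) and 8.48 (38865153 to 38865299, E669Q with DMSO and in 5 libraries). Whether the narrow intervals mark open chromatin was not tested.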
